A study of Mus musculus with 42 samples.

Results

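The mouse Hox genes encode homeodomain transcription factors that lie in 4 clusters, Hoxa to Hoxd, and this account follows all of them through the differentiation of mouse embryonic stem cells (mESCs) to anterior definitive endoderm (ADE). A gene was taken as a member where its probe carried a RefSeq accession and its symbol was Hox followed by a, b, c or d and a number, which left out the antisense genes. This gave 39 genes among 20972 with an accession and a symbol on the array, 11 of them Hoxa, 10 Hoxb, 9 Hoxc and 9 Hoxd. The rule uses no measured value. Genes with 2 such probes, such as Hoxa9, Hoxa13, Hoxb3 and Hoxd11, were read at the probe with the higher mean over all 42 arrays.

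Microarrays of 14 groups with 3 arrays each were measured, and the series states that the 3 were independent experiments. All cells came from 1 mESC line, which carries a GFP reporter at Gsc and a RedStar reporter at Hhex, and the reporters served to sort the cells. The untreated series held undifferentiated ESCs, unsorted cells at d2, cells without (G-) or with (G+) GFP at d3 and d4, cells with no, low or high GFP at d5 (d5 G-, d5 Glow, d5 Ghigh), and GFP-positive cells without or with RedStar at d6 (d6 G+H-, d6 G+H+). The second series was harvested at d6, with no sort named in the labels, after 3 regimens of the EZH2 inhibitor EPZ6438 at 2.5 µM or its solvent DMSO. Control received DMSO in ESCs and throughout differentiation, ADE_EPZ received DMSO in ESCs and EPZ6438 during differentiation, and ES_EPZ received EPZ6438 in ESCs and DMSO during differentiation. The sorted groups are thus defined by reporters of Gsc and Hhex, both of which are also among the endoderm markers used here, and no group contains cells from a second line.

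In the embryo Hox genes are switched on in the order in which they lie in their cluster, from the 3' genes with low numbers to the 5' genes with high numbers, and each gene helps to set the identity of cells along the head to tail axis. Polycomb repressive complex 2 (PRC2), whose catalytic subunit is EZH2, places H3K27me3 on the clusters and keeps them silent in pluripotent cells. Anterior definitive endoderm, the source of liver, pancreas and lung, comes from the most anterior cells leaving the primitive streak, whereas Hox expression is a known feature of the more posterior streak, its mesoderm and the later gut. The genes were described in 3 classes by number, anterior (paralogues 1 to 3, 8 genes), central (4 to 8, 15 genes) and posterior (9 to 13, 16 genes).

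Polycomb targets are known for promoters rich in CpG, so the stretch upstream of the start of Hoxb1, Hoxd9 and Hoxc4, a gene of each class on which the results turn, is shown from RefSeq (GRCm38.p6, 250 bases before the annotated start, 5' to 3', plus strand, CpG in capitals). These stretches lie at chr11:96365508-96365757, chr2:74697513-74697762 and chr15:103034145-103034394, and hold 7, 13 and 8 CpG.
Hoxb1: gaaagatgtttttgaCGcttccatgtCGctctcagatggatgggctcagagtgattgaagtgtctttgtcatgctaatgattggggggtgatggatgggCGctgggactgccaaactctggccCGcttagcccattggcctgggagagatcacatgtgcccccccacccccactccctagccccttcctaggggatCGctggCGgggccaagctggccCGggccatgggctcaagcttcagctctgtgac
Hoxd9: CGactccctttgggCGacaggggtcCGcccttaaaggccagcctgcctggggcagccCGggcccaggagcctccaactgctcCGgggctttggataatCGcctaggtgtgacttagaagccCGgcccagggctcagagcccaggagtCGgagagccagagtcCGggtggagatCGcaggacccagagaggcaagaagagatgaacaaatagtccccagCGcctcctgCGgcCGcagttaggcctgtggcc
Hoxc4: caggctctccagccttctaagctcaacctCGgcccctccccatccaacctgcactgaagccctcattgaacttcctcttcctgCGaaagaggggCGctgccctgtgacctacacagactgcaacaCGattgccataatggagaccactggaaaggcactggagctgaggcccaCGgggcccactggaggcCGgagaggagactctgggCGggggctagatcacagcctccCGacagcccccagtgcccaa

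The reference table held 24 promoter windows of 22 Hox genes, each of 250 bases before and 50 after the start, among 32851 windows of 27025 symbols. Hox windows had a median of 14.5 CpG (range 4 to 45) against 7 over all windows, and a median GC content of 57.7% against 52.7%. The full windows of Hoxb1, Hoxd9 and Hoxc4 held 10, 20 and 9 CpG, more than 56.5%, 73.5% and 54.2% of all windows. Those of Hoxb1 and Hoxc4 thus lay below the Hox median. By class the median was 20.0 CpG for the anterior, 11.0 for the central and 20.0 for the posterior windows, with ranges of 9 to 29, 4 to 29 and 4 to 45. The motifs below were searched on both strands, and none holds another. TGATNNAT, the site bound jointly by Hox and Pbx proteins, stood in 4 of the 24 windows (Hoxa2, Hoxb1, Hoxb8 and Hoxd11) against 8.8% of all windows. TTTATG, the Cdx site, stood in 5 (Hoxa7, Hoxb8, Hoxd3, Hoxd4 and Hoxd11) against 11.9%. AGGTCA, the half-site of retinoic acid receptors, stood in 7 (Hoxa5, Hoxb4, Hoxc4, Hoxd3, Hoxd4, Hoxd8 and Hoxd10) against 16.3%. A match describes the letters in the window and does not show a bound site.

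Levels are given as the deposited log2 intensities, normalised by the authors across arrays, and only values of the same gene are set against each other. A spot counts as above background where the scanner software marked it well above its background. All 39 genes passed that mark on at least 3 arrays, from 6 arrays for Hoxd12 to all 42 for Hoxa9. Hoxa5, Hoxc8, Hoxc11, Hoxd3 and Hoxd12 never passed it on all 3 arrays of any group, so their levels are described only as near background. A gene was called in a comparison at a Benjamini-Hochberg adjusted p of at most 0.01 over all 55681 probes and an absolute log2 change of at least 1.5 in limma's moderated test. These thresholds follow the methods of the study, and changes are given on the log2 scale with their standard error (± SE). Where 1 group of a pair had no array above background, the fold is also given as a bound ("at least"), computed against the higher of each array's lowest signal among probes above background (3.37 to 5.13 over the arrays) and the gene's own signal.

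Some arrays stood apart from the other 2 of their group in their Hox levels. The mean log2 level over the 39 genes was 7.61 and 7.73 in replicate 1 of d3 G- and d3 G+ and 7.73 and 7.10 in replicate 2 of d4 G- and d4 G+, whereas the other arrays of those groups lay between 5.77 and 6.23. At d5 replicate 3 was the low one, at 5.65, 5.54 and 5.06 in d5 G-, d5 Glow and d5 Ghigh. Replicate 3 of each of the 11 groups without EPZ6438 or its control was scanned on another day than replicates 1 and 2, and the EPZ6438 series on a day of its own. Values given below within the second scan day thus rest on replicate 3 alone, 1 array per group. In all 7 sorted groups of d3 to d5 the array with the highest Hox mean had the lowest mean of the 6 endoderm markers (Sox17, Foxa2, Foxa1, Cer1, Hhex and Gsc). It had the highest mean of the 8 markers of posterior and lateral mesoderm in 5 of these 7 groups. The array with the highest Hox mean carried the same replicate number in all sorted groups of a day, 1 at d3, 2 at d4 and 1 at d5. These 7 groups are therefore not independent cases. The part of cell composition in the Hox values was not tested. These are bulk samples, so more cells with Hox RNA and more Hox RNA in each cell cannot be told apart.

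The marker lists followed the labels. Endoderm markers averaged 5.68 to 5.83 over the ESC arrays and 13.30 to 13.65 over the d6 arrays, while pluripotency markers (6 genes) went from 12.62 to 13.31 down to 7.44 to 8.02. Mesoderm markers averaged 6.37 to 6.43 in ESCs, 10.28 to 10.30 in d3 G+ and 10.00 to 10.58 in d4 G+, and lay at 6.35 to 7.38 at d6. The mean of the neural markers (6 genes) stayed at or below 6.08 on every array. The mean of the visceral endoderm markers (5 genes) was 5.20 to 5.33 in ESCs, 6.29 to 6.68 in d6 G+H- and 6.80 to 7.57 in d6 G+H+. Of the 5, 4 were above background on all 3 arrays of each d6 group, and Afp on none. Ttr was called higher than ESCs in both d6 groups, and Apoa4 in d6 G+H+.

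Most Hox genes were at or near background in ESCs. Of 117 values (39 genes on 3 arrays), 33.3% were above background, against 68.8% over all genes of the array, and 8 genes were so on all 3 arrays, among them Hoxa4, Hoxa7, Hoxa9, Hoxb9, Hoxb13, Hoxc6 and Hoxc13. Hoxb13 and Hoxc13, the last genes of their clusters, known from prostate and from hair and nail, read 6.43, 6.05 and 6.15, and 6.11, 6.26 and 5.94. Both were thus above background at the start, when most genes of their clusters were not.

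At d2 the genes newly above background were mainly anterior. The share of values above background was 83.3% for the anterior, 62.2% for the central and 54.2% for the posterior class, against 20.8%, 37.8% and 35.4% in ESCs. Over all genes it was 70.8% at d2. A further 7 genes reached the mark on all 3 arrays for the first time, and 5 of them were anterior: Hoxa2, Hoxa3, Hoxb1, Hoxb2 and Hoxb3. The others were Hoxb7 and Hoxd13. The median log2 change from ESCs was 1.63 over the anterior, 0.31 over the central and 0.19 over the posterior genes, and 0.02 over all genes of the array. Hoxb1, which patterns the hindbrain, read 4.47, 4.55 and 4.24 in ESCs and 7.55, 5.43 and 7.58 at d2, with no overlap of the groups. It was the only member called (log2 change 2.44 ± 0.57 SE, adjusted p = 0.00541, at least 3.94-fold), where 1.73% of all genes were called.

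Replicate 2 of d2 was the low array for these genes. Hoxb2, the neighbour of Hoxb1, read 8.38, 5.84 and 8.54 at d2 against 4.43, 4.67 and 4.68 in ESCs, a difference of 2.99 ± 0.95 that missed the threshold (adjusted p = 0.0527). In 6 of the 8 anterior genes the d2 arrays all lay above the ESC arrays, against 3 of 15 central and 1 of 16 posterior genes, where 15.4% of all genes did so. Hoxd3, of the same class, stayed at 4.45 against 4.36 and was above background in neither group. The call of Hoxb1 stood without d2 replicate 2 and was lost without any 1 of the other 5 arrays of the comparison, where no member was called.

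**Figure D1:**
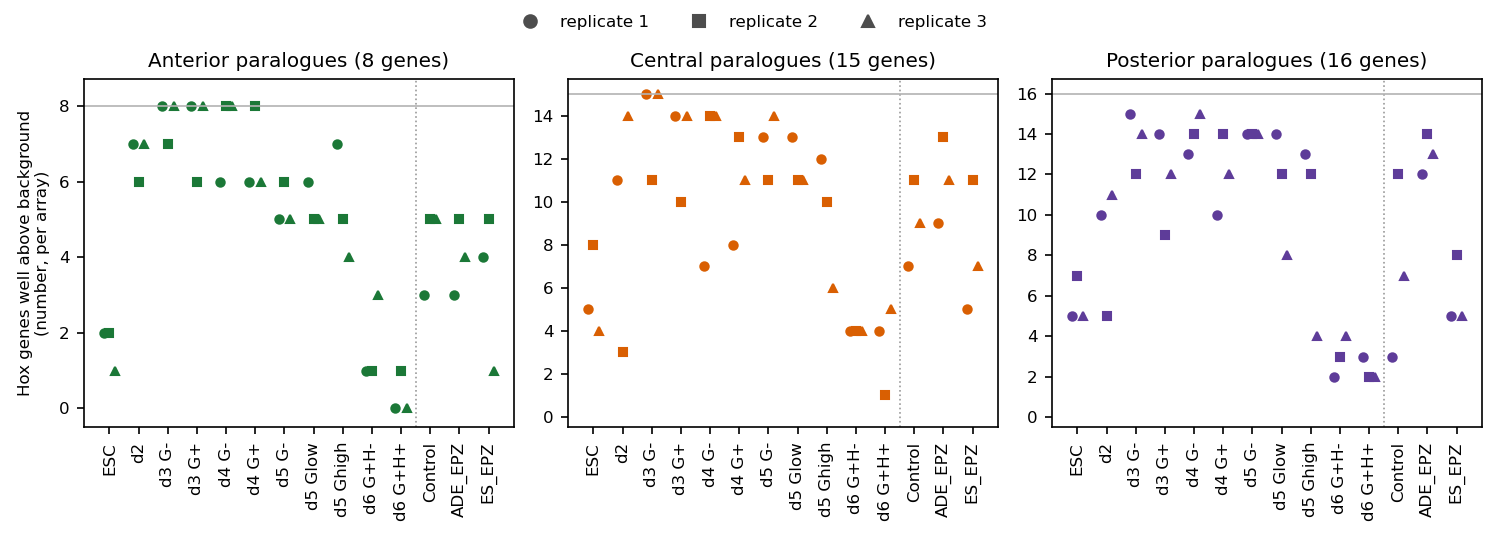
Number of Hox genes marked well above background on each array (vertical axis) in the 14 groups (horizontal axis), in 1 panel per position class, with the grey line at the size of the class and the dotted line before the EPZ6438 series. Anterior genes reached 6 or 7 of 8 at d2, central and posterior genes rose at d3, and all classes were low at d6 in the untreated series.

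By d3 central and posterior genes were above background too. As many as 16 genes were above background on all 3 arrays of a d3 group for the first time, of which 1 was anterior (Hoxd1), 7 were central (Hoxa6, Hoxb4, Hoxb6, Hoxb8, Hoxc4, Hoxd4 and Hoxd8) and 8 posterior (Hoxa10, Hoxa11, Hoxa13, Hoxc9, Hoxc10, Hoxd9, Hoxd10 and Hoxd11). No gene did so first at d4 or d6, 2 did so at d5 (Hoxb5 and Hoxc12) and 1 only in the EPZ6438 series (Hoxc5). The share of values above background was 89.7% in d3 G- and 81.2% in d3 G+, against 73% and 69.6% over all genes. The mark also moved with the array. Replicate 3 of d3 G- had 37 members above background at a Hox mean of 5.82 and 79.9% of all genes above it, whereas replicate 2 had 30 members at a Hox mean of 5.99 and 68.6% of all genes. By this mark, and with 1 sample time a day, most anterior genes came at d2 and the central and posterior genes in similar shares at d3 (7 of 15 and 8 of 16).

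In d3 G+ cells, the Gsc-positive population, 8 Hox genes were higher than in ESCs and 1 was lower, where 6.59% of all genes were called. They were Hoxa3, Hoxb1, Hoxb2, Hoxb3, Hoxd1, Hoxd4, Hoxd8 and Hoxd9, so 5 of the 8 anterior genes, 2 of the 15 central and 1 of the 16 posterior. Hoxb1 read 9.44, 7.99 and 8.32 and thereby rose at least 13.1-fold (4.17 ± 0.57, adjusted p = 8.5e-07 by limma). Hoxb2 read 9.99, 7.95 and 8.79 (4.32 ± 0.95, adjusted p = 9.3e-04, at least 16.3-fold). Neither gene's arrays overlapped those of ESCs.

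Hoxd9, which acts in the lumbosacral axis and the limb, read 4.87, 5.70 and 4.88 in ESCs and 9.89, 8.27 and 7.54 in d3 G+ (3.41 ± 0.67, adjusted p = 2.1e-04). Hoxb3 read 8.34, 7.41 and 7.75 (2.76 ± 0.52, adjusted p = 1.3e-04) and Hoxd1 read 8.47, 6.95 and 7.01 (2.63 ± 0.49, adjusted p = 1.2e-04). Hoxd4, Hoxa3 and Hoxd8 rose by 2.62, 2.58 and 2.35. The 1 gene that fell was Hoxb13, which read 4.82, 4.42 and 4.16, above background on no array, against 6.21 ± 0.20 (SD, n = 3) in ESCs (-1.74 ± 0.31, adjusted p = 7.2e-05, at least 2.40-fold lower). The Hoxc cluster held no called gene. The d3 G+ count of 9 ranged from 5, without d3 G+ replicate 1, to 10 when single arrays were left out.

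In d3 G- cells 4 members were called, all higher: Hoxb1, Hoxd1, Hoxd4 and Hoxd9, where 2.42% of all genes were called. Hoxb1 read 8.78, 6.78 and 6.42 (2.91 ± 0.57, adjusted p = 5.7e-04) and Hoxd9 read 9.61, 8.10 and 7.40 (3.22 ± 0.67, adjusted p = 0.00111). The median change from ESCs was 1.14 over the 39 genes in d3 G- and 1.39 in d3 G+, with 36 of 39 positive in each, and these 2 comparisons share the ESC arrays. Without replicate 1 of d3 G-, the array that stood apart, no member was called in d3 G-, and 2 were called without any 1 of the ESC arrays. Without the high arrays of d3 and d4, 1 in each group, the medians were 0.56 and 0.75, with 32 and 33 genes positive. They were 0.68 and 0.91 with a background correction offset of 50 in place of the authors' 10, and 2.11 and 2.47 with the 75th percentile scaling. Within the first scan day the medians were 1.45 and 1.81, and within the second 0.62 and 0.68.

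**Figure D2:**
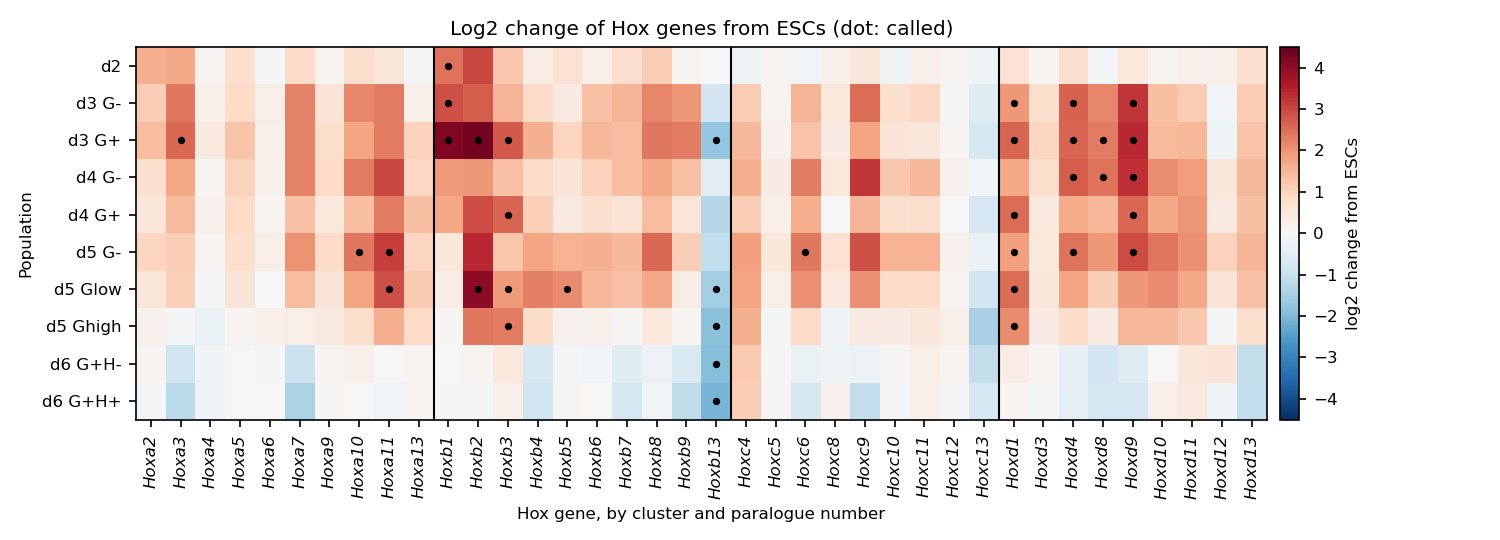
Log2 change from ESCs of Hox genes (columns, by cluster and paralogue number) in the 10 untreated populations (rows), with called changes marked by a dot. Hoxb1 is marked from d2, most marks lie in Hoxb and Hoxd at d3 to d5, and at d6 the marked gene is the lower Hoxb13.

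At d4 3 members were called in each population, all higher than in ESCs. In d4 G- these were Hoxd4, Hoxd8 and Hoxd9 (3.21% of all genes called), and in d4 G+ they were Hoxb3, Hoxd1 and Hoxd9 (7.41%). Hoxd9 read 8.05, 9.19 and 8.11 in d4 G- (3.30 ± 0.67, adjusted p = 6.2e-04) and 7.34, 8.60 and 7.26 in d4 G+ (2.58 ± 0.67, adjusted p = 0.00428). Hoxb3 was even over the d4 G+ arrays, at 8.01, 7.49 and 7.55 (2.61 ± 0.52, adjusted p = 2.4e-04), while its second probe gave 1.16 and was not called. Hoxb1 had no call at d4, at 5.93, 7.88 and 5.18 in d4 G- and 5.58, 7.69 and 5.23 in d4 G+, so that replicate 2 alone lay near its d3 values. With the 75th percentile scaling the d4 G+ calls were 6 higher and 1 lower in place of 3 and 0. Leaving out single arrays gave 1 to 4 calls in d4 G- (1 without ESC replicate 1, ESC replicate 3 or d4 G- replicate 2) and 2 to 4 in d4 G+.

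At d5 Hoxb1 was above background on no array of any population, its values being 4.91, 5.27 and 4.59 in d5 G-, 4.99, 4.90 and 4.40 in d5 Glow and 4.39, 4.68 and 4.38 in d5 Ghigh. Its neighbours Hoxb2 and Hoxb3 were above background in most of the same arrays. Hoxb2 read 9.63, 8.02 and 6.30 in d5 G-, 9.91, 9.33 and 6.61 in d5 Glow and 8.30, 7.58 and 5.06 in d5 Ghigh, with replicate 3 the lowest each time. It was called in d5 Glow (4.03 ± 0.95, adjusted p = 0.00176, at least 13.4-fold) and missed the threshold in d5 G- (3.39 ± 0.95, adjusted p = 0.0131).

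In d5 G- 6 members were higher than in ESCs, 3 of them posterior, where 4.32% of all genes were called: Hoxa10, Hoxa11, Hoxc6, Hoxd1, Hoxd4 and Hoxd9. Hoxa11, known from limb and uterus, read 4.79, 4.76 and 4.72 in ESCs and 9.27, 8.20 and 6.11 in d5 G- (3.10 ± 0.83, adjusted p = 0.00848, at least 7.76-fold). Hoxa10 rose by 2.38 ± 0.63 (adjusted p = 0.00829) and Hoxc6, a thoracic gene, by 2.39 ± 0.63 (adjusted p = 0.00752). In this population 28 members were above background on all 3 arrays, against 30 in d3 G-. The count of calls rested on single arrays. It was 16 without d5 G- replicate 3, and 0 without ESC replicate 1, ESC replicate 3, d5 G- replicate 1 or d5 G- replicate 2, and 1 without ESC replicate 2. The median change was 2.01 within the first scan day and 0.52 within the second, against 1.53 pooled.

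In d5 Glow 5 members were higher (Hoxa11, Hoxb2, Hoxb3, Hoxb5 and Hoxd1) and Hoxb13 was lower, where 7.74% of all genes were called. Hoxb5, known from vagal neural crest and lung mesenchyme, was called here alone among the populations, at 7.19, 6.95 and 6.29 against 4.66, 4.60 and 4.81 in ESCs (2.12 ± 0.46, adjusted p = 6.0e-04, at least 3.81-fold). Hoxb13 read 4.37, 5.32 and 4.22 (-1.57 ± 0.31, adjusted p = 2.4e-04). In d5 Ghigh only Hoxb3 and Hoxd1 were higher and Hoxb13 was lower, where 8.19% of all genes were called. Hoxb3 read 8.48, 7.67 and 5.99 there (2.31 ± 0.52, adjusted p = 0.00102) and Hoxd1 read 7.48, 7.36 and 6.02 (2.11 ± 0.49, adjusted p = 0.00145). In d5 Ghigh the second Hoxb3 probe gave 0.97 and was not called. When single arrays were left out, the counts went from 2 (without d5 Glow replicate 1) to 9 in d5 Glow, with 3 without ESC replicate 1 or d5 Glow replicate 2, and from 1 (without d5 Ghigh replicate 1) to 4 in d5 Ghigh. With the 75th percentile scaling d5 Ghigh had 2 higher and 2 lower calls.

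**Figure D3:**
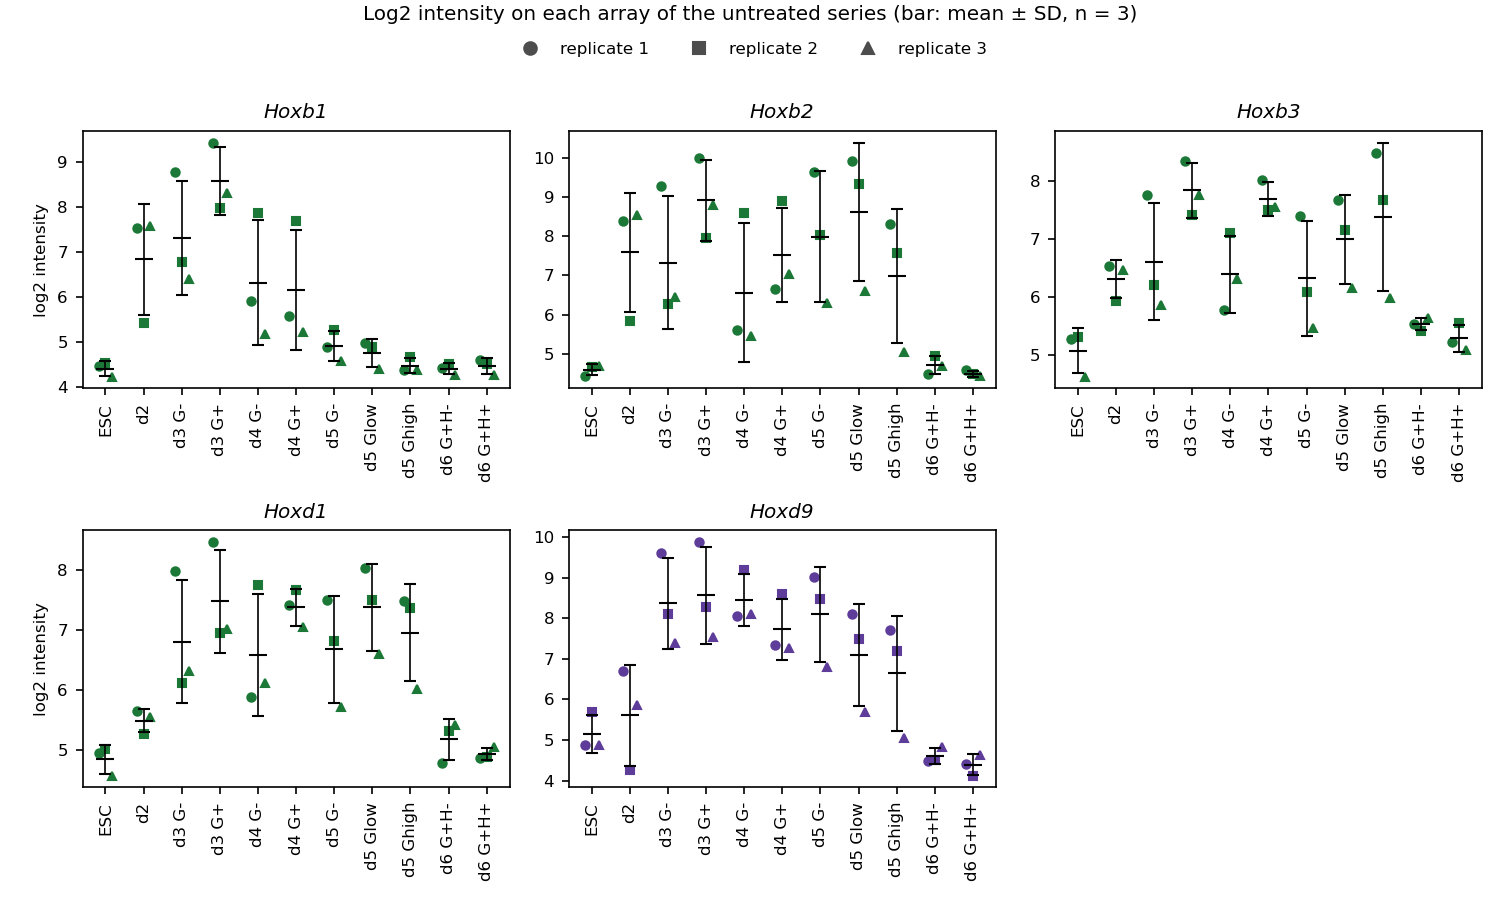
Log2 intensity of 5 Hox genes (vertical axes) on each array of the untreated series (symbols by replicate), with the mean and SD of the 3 arrays as bars. Hoxb1 was above background on all arrays from d2 to d4 and on none at d5, the other genes were high at d5 on most arrays, and all 5 were low in both d6 populations.

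Over all stages 12 genes were called higher than ESCs at least once, 5 of 8 anterior, 4 of 15 central and 3 of 16 posterior, where 9.05% of all genes were. Hoxd1 was called in 6 of the 10 populations, Hoxd9 in 5, and Hoxb3 and Hoxd4 in 4 each. Within the clusters these were 3 Hoxa, 4 Hoxb, 1 Hoxc and 4 Hoxd genes. Hoxc9, a thoracic gene, had a large change with a large spread, for example 7.83, 10.15 and 7.72 in d4 G- against 5.19, 5.95 and 4.92 in ESCs (3.22 ± 0.94, adjusted p = 0.0216), and was called in none. Hoxa4 and Hoxa9 moved little, with group means of 5.29 to 6.11 and 5.61 to 6.50. In all comparisons together 46 changes of 16 genes were called, and 23 genes were called in none, where 18% of all genes were called at least once.

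Between the sorted populations of the same day no Hox gene passed the thresholds in the fit without pairs. Arrays of the same replicate number moved together in these populations, with correlations of 0.108 to 0.77. That shared part stays in the spread of this fit. No member was called between d3 G+ and d3 G- (1.8% of all genes called). At an unadjusted p under 0.05 there were 4 members, against 19% of all genes. Nor was any called between d4 G+ and d4 G- (2.28%), with 3 members at that unadjusted p against 20.9% of all genes. Between d5 Glow and d5 G- there was also none (0.758%), with 1 member against 14.3%. At d3 all 8 anterior genes were higher in G+ (median 0.48), while the central and posterior medians were 0.16 and 0.05. Hoxb1 differed by 1.25 ± 0.57 (adjusted p = 0.327) and Hoxb3 by 1.23 ± 0.52 (adjusted p = 0.261). The d3 G+ arrays of Hoxb13 all lay below those of d3 G-, at 4.82, 4.42 and 4.16 against 5.55, 5.48 and 5.01 (-0.87 ± 0.31, adjusted p = 0.136).

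At d4 most genes were lower in the GFP-positive cells by group means. In d4 G+, 13 of 15 central and 14 of 16 posterior genes were lower than in d4 G-, with medians of -0.34 and -0.54, whereas the anterior median was 0.27 (4 of 8 higher). The Hox means of G+ and G- were 5.77 and 5.93 in replicate 1, 7.10 and 7.73 in replicate 2, and 5.93 and 6.03 in replicate 3. The median over the 39 genes was -0.40 within the first scan day (9 higher) and -0.11 within the second (15 higher). Hoxb3 was higher in G+ without overlap, at 8.01, 7.49 and 7.55 in G+ against 5.78, 7.09 and 6.30 in G- (1.30 ± 0.52, adjusted p = 0.199). Whether the difference of G+ from G- itself moved from d3 to d4 was tested directly, and no member was called, with no gene of the array called either (0%). From d3 to d5, with the mean of Glow and Ghigh in place of G+, no member was called where 0.219% of all genes were. No member had an unadjusted p under 0.05 in the first test (3.45% of all genes) and 2 had in the second (8.72%), where the lowest adjusted p was 0.71.

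Cells with high GFP at d5 had lower Hox values than those with none, in a shift over most of the genes and with no single call. Between d5 Ghigh and d5 G-, 36 of 39 genes were lower, with a median of -0.95, and all 15 central genes were (median -1.37). No member was called, where 2.58% of all genes were, although 17 of 39 members had an unadjusted p under 0.05, 16 of them lower, against 21.5% of all genes. Hoxc13 came nearest, at 4.52, 4.64 and 4.73 against 5.99, 5.90 and 5.48, with an adjusted p of 0.00588 but a log2 change of only -1.16 ± 0.27. Hoxc9 had the largest difference, at 6.45, 6.18 and 4.64 against 8.68, 8.97 and 7.04 (-2.47 ± 0.94, adjusted p = 0.148). At the probe used Hoxb3 ran the other way, at 8.48, 7.67 and 5.99 against 7.39, 6.09 and 5.47 (1.06 ± 0.52, adjusted p = 0.321). The second Hoxb3 probe gave -0.49. Endoderm markers averaged 11.72 to 13.43 in d5 Ghigh, 8.97 to 11.54 in d5 Glow and 8.13 to 9.63 in d5 G-, and their part in the Hox difference was not tested.

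Between d5 Glow and d5 Ghigh, 36 of 39 genes were higher in Glow with a median of 0.55, and none was called (0.267% of all genes called). Hoxb5 came nearest, at 7.19, 6.95 and 6.29 in Glow against 5.18, 4.94 and 4.53 in Ghigh (1.93 ± 0.46, adjusted p = 0.0409). Its arrays did not overlap. Within the first scan day the median was 0.67 and within the second 0.41. Without the 4 arrays that stood apart at d3 and d4, which changes only the shared estimate of spread here, 1 member was called in this comparison and 2 between d5 Ghigh and d5 G-.

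At d6 most Hox genes were at background, as in ESCs. Values above background made up 22.2% for d6 G+H- and 15.4% for d6 G+H+ cells, against 62.4% in d5 Ghigh and 33.3% in ESCs. Over all genes the shares in these groups were 68.6%, 69.5%, 74.3% and 68.8%. In d6 G+H+ 29 genes were above background on no array, and 2, Hoxa9 and Hoxc4, on all 3. The median change from ESCs was -0.06 in both populations, and the sign of this median turned, reaching 0.07 for d6 G+H- cells and 0.17 for d6 G+H+ cells, with slide as a fixed block, and 0.03 and 0.05 with slide as a random block. In each population 2 members were lower than in ESCs and none higher, where 10.2% of all genes were called for d6 G+H- cells and 11.1% for d6 G+H+ cells.

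Hoxb13 was lower in both. It read 4.58, 3.98 and 4.30 in d6 G+H-, and 4.23, 4.48 and 3.68 in d6 G+H+ (-1.92 and -2.08, each ± 0.31, adjusted p = 9.3e-06 and 2.3e-06, at least 2.62-fold and 2.39-fold lower), and all 6 values lay below every ESC value. Hoxc4 stood above its ESC values without overlap, at 6.54, 5.92 and 6.89 in G+H- and 6.19, 5.90 and 6.97 in G+H+ against 5.31, 5.27 and 5.18 in ESCs (1.19 and 1.10, each ± 0.53, adjusted p = 0.113 and 0.15).

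Against d5 Ghigh, the population before them in the differentiation, 35 of 39 genes were lower in each d6 population, with medians of -0.60 in G+H- and -0.79 in G+H+. In d6 G+H+ 3 members were called lower, Hoxb3 and Hoxd1 among them, where 4.16% of all genes were called. Hoxb3 fell to 5.22, 5.55 and 5.09 (-2.09 ± 0.52, adjusted p = 0.00476) and Hoxd1 to 4.86, 4.88 and 5.04 (-2.03 ± 0.49, adjusted p = 0.00373, at least 3.80-fold lower). The second Hoxb3 probe gave -0.74 and was not called.

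In d6 G+H- 1 member was called, where 2.17% of all genes were. With the replicate number as a block 3 members were called, since Hoxb3 (-1.84, adjusted p = 0.00616) and Hoxd1 (-1.78, adjusted p = 0.00683) then passed too. In d6 G+H+ the block added Hoxd9 (-2.26, adjusted p = 0.00582) to the 3. Replicate 3 of d5 Ghigh had a Hox mean of 5.06, against 6.15 and 5.91 in the other replicates and 4.80 to 5.03 at d6. Without it 5 members were called in each d6 population. Without any 1 of the other arrays no member was called in d6 G+H-, and for the d6 G+H+ cells there was none without d5 Ghigh replicate 1 or 2, 2 without d6 G+H+ replicate 2, and 1 without d6 G+H+ replicate 1 or 3. The medians were -0.97 and -1.10 within the first scan day but -0.09 and -0.11 within the second, which held replicate 3 alone. Mesoderm markers lay at 8.17 to 10.08 in d5 Ghigh and 6.35 to 7.38 at d6, again with replicate 3 of d5 Ghigh the lowest of its group, and their part in the difference was not tested. Between d6 G+H+ and d6 G+H- no member was called and none had an unadjusted p under 0.05 (6.01% of all genes), where no gene of the array was called (0%). The differences ran from -0.86 to 0.37.

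The EPZ6438 series asked what blocking PRC2 does to these genes. In Control cells at d6 53% of values were above background, against 66.5% over all genes. Hoxb2 read 8.35, 8.61 and 7.85 in Control, where the sorted d6 cells gave 4.43 to 4.95. The 2 series differ in sort, solvent, slide and scan day, which cannot be told apart, so no test was made between them.

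With EPZ6438 during differentiation most posterior and central Hox values were higher than in Control and most anterior ones lower. The share of values above background was 81.2% for posterior genes in ADE_EPZ against 45.8% in Control, 73.3% against 60% for central genes and 50% against 54.2% for anterior genes. Over all genes it was 68.8% against 66.5%. The median log2 change was 0.81 over the posterior genes (13 of 16 higher), 0.44 over the central (13 of 15 higher) and -0.69 over the anterior (7 of 8 lower), against -0.01 over all genes. Under the alternatives that can move these medians, which rebuild the values from the scanner intensities or average the probes of a gene, they were 0.44 to 1.19, 0.17 to 0.49 and -0.82 to -0.42.

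Of the 39 genes 2 were called, both in the Hoxc cluster and both higher, where 2.78% of all genes were called. Hoxc4, a cervical gene at the 3' end of its cluster, read 6.05, 6.10 and 6.06 in Control and 8.47, 8.73 and 8.91 in ADE_EPZ, a rise of 6.21-fold (2.64 ± 0.53, adjusted p = 7.9e-04). Hoxc13, at the 5' end, read 5.20, 4.98 and 5.43 in Control, above background on no array, and 7.20, 7.45 and 7.20 in ADE_EPZ (2.08 ± 0.27, adjusted p = 3.6e-06, at least 4.22-fold). The arrays did not overlap at either gene. Both calls stood when any single array was left out.

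Hoxc9 read 6.78, 6.41 and 6.29 in Control and 8.72, 8.88 and 7.97 in ADE_EPZ, with a standard error larger than that of Hoxc13 (2.03 ± 0.94, adjusted p = 0.208). Hoxc6 read 7.21, 7.14 and 7.31 against 8.56, 8.97 and 8.50 (1.45 ± 0.63, adjusted p = 0.163). Hoxa7 read 6.96, 6.99 and 7.04 against 8.44, 8.60 and 8.16 (1.40 ± 0.75, adjusted p = 0.307). The 3 arrays of each regimen were tight for these genes, whereas the fit takes its spread from all 14 groups. In a fit of the compared groups alone, 5 members were called, 3 higher and 2 lower.

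Without overlap of the arrays, 17 members were higher in ADE_EPZ (20.1% of all genes) and 4 were lower (19.8%). Of the higher ones 11 were posterior, 6 central and none anterior. The posterior ones were Hoxa10, Hoxa11, Hoxb9, Hoxb13, Hoxc9, Hoxc10, Hoxc11, Hoxc13, Hoxd9, Hoxd10 and Hoxd13, and they came from every cluster. On each of the 3 slides that carried a Control and an ADE_EPZ array, 12 of 16 posterior genes were higher on all 3, against 8 of 15 central and 0 of 8 anterior, where 26.4% of all genes were. Lower on all 3 were 4 anterior, 1 central and 1 posterior gene (26.7% of all genes). A gene whose arrays do not overlap must go the same way on every slide, so the slide counts largely repeat those without overlap. Each slide also carried unlike replicate numbers of the 2 regimens. Hoxb13 read 5.32, 5.59 and 4.93 in ADE_EPZ (0.87 ± 0.31, adjusted p = 0.0733).

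**Figure D4:**
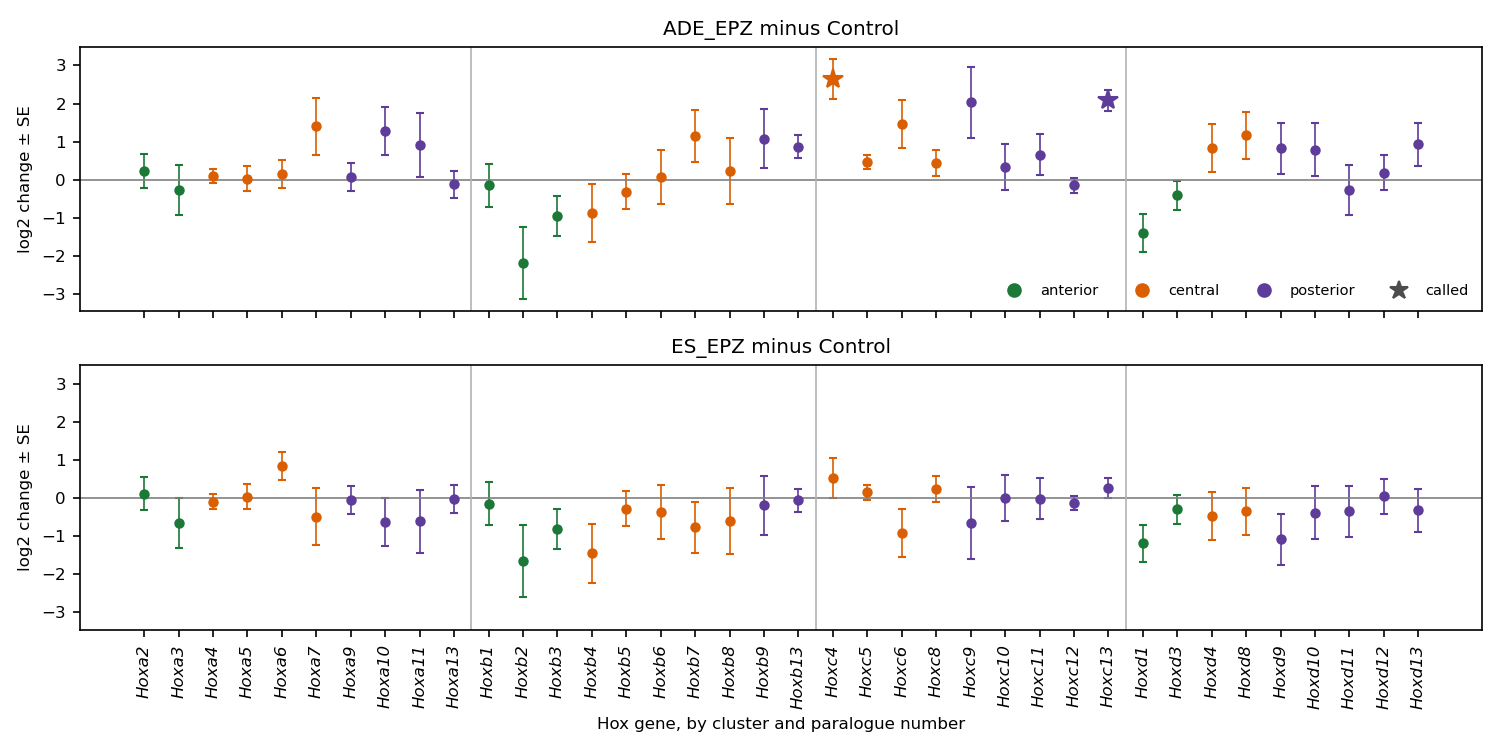
Log2 change from Control with its standard error (vertical axes) for Hox genes in order of cluster and paralogue number, in ADE_EPZ (top) and ES_EPZ (bottom), coloured by position class with stars for called genes. In ADE_EPZ anterior genes lie mostly below 0 and posterior ones above, with Hoxc4 at 2.64 and Hoxc13 at 2.08, and in ES_EPZ most genes lie below 0.

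Among the 4 lower genes were Hoxb2, Hoxb4 and Hoxd1. Hoxb2 read 6.02, 6.74 and 5.48 in ADE_EPZ, below all Control values (-2.19 ± 0.95, adjusted p = 0.166). Hoxd1 read 5.25, 5.81 and 5.06 against 6.65, 6.86 and 6.80 (-1.40 ± 0.49, adjusted p = 0.0653). The endoderm markers averaged 13.08 to 13.42 in ADE_EPZ and 11.73 to 12.21 in Control, and the mesoderm markers 7.37 to 7.95 against 8.87 to 8.96. The part of these markers in the difference of the anterior genes was not tested.

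EPZ6438 in ESCs alone, followed by DMSO, gave no called member, where 0.429% of all genes were called, and 3 members had an unadjusted p under 0.05, against 18.8% of all genes. Most changes were downward, 31 of 39, with a median of -0.32. Without overlap 14 members were lower (14.2% of all genes) and 1 was higher (14%), Hoxc4, at 6.63, 6.20 and 6.96 (0.53 ± 0.53, adjusted p = 0.807). Hoxb4 read 6.72, 7.28 and 5.54 against 7.87, 8.20 and 7.82 in Control (-1.45 ± 0.77, adjusted p = 0.457). Replicate 3 of ES_EPZ was the lowest array for Hoxb2, Hoxb4 and Hoxd1, and it also had the highest endoderm mean of the group, 13.06 against 12.60 and 12.72.

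Both comparisons above use the same Control arrays, so the 2 inhibitor regimens, ADE_EPZ and ES_EPZ, were also compared directly. They differ in the stage of exposure and in whether DMSO followed it before harvest, which cannot be told apart. No anterior gene separated the arrays, whereas 8 central and 11 posterior genes did, all higher in ADE_EPZ (19 of 39, against 10.5% of all genes; 0 lower, against 8.42%). The median differences were -0.13 over the anterior, 0.57 over the central and 1.05 over the posterior genes. Hoxc13 was called (1.80 ± 0.27, adjusted p = 3.1e-04), where 0.129% of all genes were, at 5.41, 5.12 and 5.91 in ES_EPZ. The call was lost with an offset of 50 (1.20, adjusted p = 2.3e-05), with no background correction (1.47, adjusted p = 3.8e-05), with the 75th percentile scaling (2.97, adjusted p = 0.053) and in a fit of these groups alone (1.80, adjusted p = 0.0228). Hoxc4 (2.11 ± 0.53, adjusted p = 0.0536) and Hoxc6 (2.37 ± 0.63, adjusted p = 0.0753) came next. Hoxd9 read 7.19, 7.16 and 6.90 in ADE_EPZ against 5.50, 5.18 and 4.84 in ES_EPZ and 6.02, 6.25 and 6.49 in Control, so the 3 regimens did not overlap at this gene (1.91 ± 0.67 between the inhibitor regimens, adjusted p = 0.241).

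**Figure D5:**
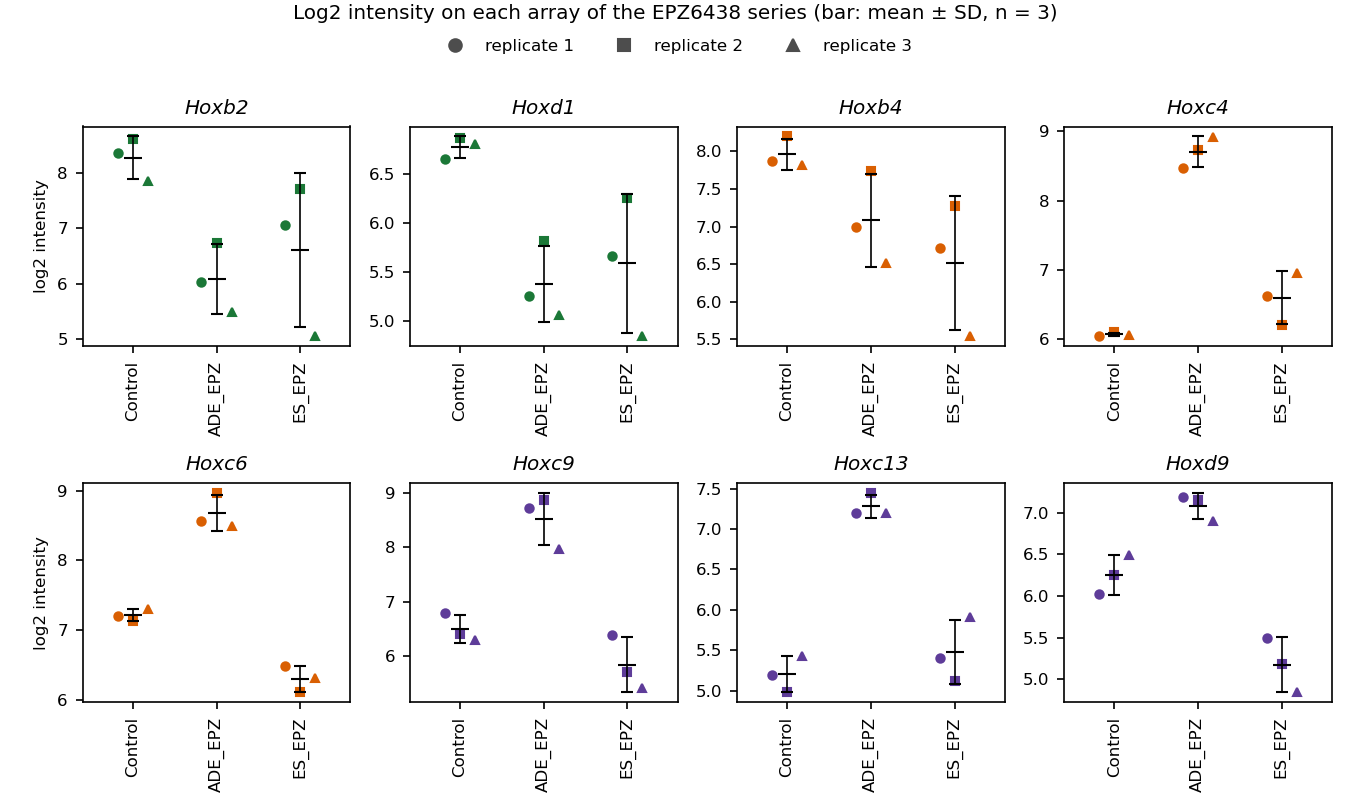
Log2 intensity of 8 Hox genes (vertical axes) on each array of Control, ADE_EPZ and ES_EPZ (symbols by replicate), with the mean and SD of the 3 arrays as bars. The anterior genes Hoxb2 and Hoxd1 were highest in Control, and Hoxc4, Hoxc6, Hoxc9, Hoxc13 and Hoxd9 were highest in ADE_EPZ, each by group means.

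Genes known to act with or upstream of Hox were read from lists. Of 8 ParaHox and Evx genes, 3 were higher and 0 lower in d3 G+ than in ESCs, Cdx1, Cdx2 and Evx1. Cdx2, an activator of central and posterior Hox genes, rose by 3.98 ± 0.72 in d3 G+ (adjusted p = 8.2e-05) and in d6 G+H+ was lower than in ESCs (-2.85 ± 0.72, adjusted p = 0.00246). Evx1, which lies beyond Hoxa13, rose by 8.11 ± 0.50 in d3 G+ and was still 4.20 ± 0.50 above ESCs in d6 G+H+. Evx1 fell by 2.47 in ADE_EPZ against Control (adjusted p = 9.2e-04), where the posterior Hoxa genes on its side had values of 1.29 (Hoxa10), 0.91 (Hoxa11) and -0.12 (Hoxa13), none of them called. Pdx1, the pancreatic ParaHox gene, rose by 1.52 ± 0.18 in ADE_EPZ (adjusted p = 8.7e-07), and these were the 2 of 8 called there.

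Of 9 TALE cofactors, the partners with which Hox proteins bind DNA, 3 were higher in d3 G+ (Pbx3, Meis2 and Meis3) and none lower. Meis2 was 3.04 ± 0.51 above ESCs in d3 G+ and fell by 2.54 from d5 Ghigh to d6 G+H+ (adjusted p = 5.8e-04). Of 8 posterior signals, 5 were higher in d3 G+, Wnt3, Fgf8 and T among them, and 1, Fgf4, was lower, and Wnt3 and T were lower in d6 G+H+ than in d5 Ghigh. Wnt3, which induces the streak, was also lower in ADE_EPZ than in Control (-2.46 ± 0.47, adjusted p = 4.7e-04), the only 1 of the 8 called there.

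Of 12 genes of the retinoic acid pathway, 2 were higher and 1 lower in d3 G+. Cyp26a1, which degrades retinoic acid, rose by 6.99 ± 0.29 in d3 G+ (adjusted p = 7.1e-18) and stood 8.79 ± 0.29 above ESCs in d6 G+H+. Rarb, itself a target of retinoic acid, was higher in both inhibitor regimens than in Control (1.91 ± 0.30 in ADE_EPZ, adjusted p = 4.2e-05, and 1.81 ± 0.30 in ES_EPZ, adjusted p = 0.00106). In untreated cells Rarb also stood 4.51 ± 0.30 above ESCs in d6 G+H- and 5.13 ± 0.30 above them in d6 G+H+. Of 7 chromatin regulators measured, 1 was higher in d3 G+ (Cbx2) and none lower, and Eed, a core subunit of PRC2, fell by 2.11 in d6 G+H+ against ESCs (adjusted p = 8.0e-15). None of the 7 was called between the regimens.

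The genes that flank the clusters were read from a list as well. Of 9 neighbours measured, none was called in d3 G+, where 6.59% of all genes and 9 of the 39 Hox genes were. Skap1, which borders the 3' end of Hoxb, was 3.17 ± 0.44 above ESCs in d5 Ghigh (adjusted p = 7.9e-07), fell by 1.88 from there to d6 G+H+, and fell by 2.24 in ADE_EPZ against Control (adjusted p = 5.7e-04). Hoxb1, next to it within the cluster, was above background on no array of these groups. Skap2, which borders the 3' end of Hoxa, was lower than ESCs in d5 Ghigh (-2.05 ± 0.24) and d6 G+H+ (-2.11 ± 0.24). The other 7 neighbours were called in no comparison, where 18% of all genes were called at least once.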

How the data were processed

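RNA from bulk or sorted cells was labelled with Cy3 and hybridised to 1-colour Agilent mouse arrays, 3 per group. Deposited values were log2 levels, which the authors corrected for background (normexp, offset 10) and quantile normalised over all arrays. Deposited scanner intensity values gave the background marks, slides and scan days and were used to rebuild the log2 values, which correlated with the deposited ones at 0.999979 or more on every array. Spots of a probe were averaged, and each gene was read at its brightest RefSeq probe. In R 4.3.3, limma 3.58.1 fitted a mean for each group over the 42 arrays (28 residual degrees of freedom), and p-values were adjusted by Benjamini-Hochberg over all 55681 probes. The fit was tested on simulated data with independent noise on each array. That simulation held no part shared by replicate number, slide or scan day, so it does not cover the shared part seen here. No batch or replicate number entered it, as in the methods of the study.

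Replicate numbers were checked as pairs by the correlation of deviations from the group means. It was 0.108 to 0.77 for the same number in every comparison of sorted populations, and replicate 3 of the untreated series shared a scan day, so the numbers were taken to pair those samples and not those of the other comparisons. The values for d5 Glow and ESC (0.071, 0.191 and 0.328) overlapped this range, and ESC replicate 3 shared that scan day too. Members and gene lists were chosen with earlier results of these data known. Called members are named by cluster and number, except 1 Hox gene that is counted with the others but not reported here by itself, with at most 4 called genes from any other list. Kmt2a and Prac1 had no probe by symbol, and the neighbour listed as Lnpk and Lnp was measured under Lnpk. Settings without the 4 high arrays of d3 and d4 and with the first scan day alone were chosen after seeing the data. Of the Hox genes 17 had no promoter window in the RefSeq table. Array number limits the precision of every value.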

Additional observations from a re-analysis of the deposited data

Results flagged for a closer look

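The response of Hoxc13 to EPZ6438 differed between the regimens by a direct test, with ADE_EPZ 1.80 ± 0.27 (log2, SE) above ES_EPZ (adjusted p = 3.1e-04, limma with Benjamini-Hochberg adjustment). All 3 ADE_EPZ arrays lay above all 3 ES_EPZ arrays. Its adjusted p ran from 2.3e-05 to 0.053 over 19 alternatives, and 15 of them kept the call. It was lost with an offset of 50, with no background correction, with the 75th percentile scaling and in a fit of these groups alone. Groups of 3 arrays are too small for a test of single outlying arrays.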

How the results depend on the processing

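No called change turned its direction. Over the 46 called changes and 960 values under alternatives, 761 were called in the same direction and 199 kept the direction but missed a threshold. Some of these alternatives, such as the looser thresholds or a fit of the compared groups alone, keep each log2 change and so could not turn it. The looser thresholds also keep every call. Of 315 counts of called members under alternatives other than leaving out 1 array, 238 were within 1.5 times. The other counts follow by setting, and their causes were not tested. Against ESCs, an adjusted p of 0.05 with a log2 change of 1 gave 2 members at d2, 7 in d3 G-, 16 in d3 G+, 11 in d4 G-, 9 in d4 G+, 15 in d5 G-, 14 in d5 Glow and 5 in d5 Ghigh. It gave 1 between d5 Ghigh and d5 G-, 1 between d5 Glow and d5 Ghigh, and 4 and 5 between d6 G+H- or d6 G+H+ and d5 Ghigh. Fitting the compared groups alone gave 0 at d2, 0 in d3 G-, 1 in d4 G-, 5 in d4 G+, 1 in d5 G-, 0 and 1 for the d6 populations against d5 Ghigh, 5 for ADE_EPZ against Control and 2 for ADE_EPZ against ES_EPZ. Fitting the same series alone gave 0 at d2, 2 in d3 G-, 1 in d5 G- and 8 for ADE_EPZ against ES_EPZ.

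The mean of a gene's probes gave 6 in d4 G- and 0 and 1 for d6 against d5 Ghigh. An offset of 50 gave 0 at d2, 2 in d3 G-, 1 in d5 G-, 2 in d5 Glow, 1 in d5 Ghigh, 1 in each d6 population, 0 and 1 for d6 against d5 Ghigh, 1 for ADE_EPZ against Control and 0 for ADE_EPZ against ES_EPZ. No background correction gave 0 at d2, 1 in d5 G-, 1 in each d6 population, 0 for d6 G+H- against d5 Ghigh and 0 for ADE_EPZ against ES_EPZ. The 75th percentile scaling gave 2 at d2, 5 in d4 G-, 7 in d4 G+, 5 for d6 G+H+ against d5 Ghigh and 0 for ADE_EPZ against ES_EPZ, and it moved the median of all probes by up to 0.17 (d3 G+ minus d3 G-, from 0.01 to 0.18). Slide as a fixed block gave 7 in d4 G-, 5 in d4 G+, 14 in d5 G-, 13 in d5 Glow and 1 for d6 G+H+ against d5 Ghigh, and turned the median of d6 G+H+ minus d6 G+H- from -0.10 to 0.10. Slide as a random block turned that median to 0.02 and gave 2 at d2, 7 in d3 G-, 8 in d4 G-, 6 in d4 G+, 12 in d5 G-, 10 in d5 Glow and 1 between d5 Glow and d5 Ghigh. The settings chosen after seeing the data gave, without the 4 high arrays, 2 at d2, 1 in d3 G-, 1 in d4 G-, 16 in d5 G-, 13 in d5 Glow, 2 between d5 Ghigh and d5 G-, 1 between d5 Glow and d5 Ghigh and 2 and 6 for d6 against d5 Ghigh. The first scan day alone gave 0 at d2, 10 in d5 G- and 5 for each d6 population against d5 Ghigh.

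With the replicate number as a block, the counts were 7 in d4 G- and 3 for d6 G+H- against d5 Ghigh. In the comparisons with ESCs and between regimens the numbers were not taken as pairs. ESC replicate 3 did share its scan day with replicate 3 of the other untreated groups. Correlations for the same number were 0.071, 0.191 and 0.328 (d5 Glow and ESC), 0.219, 0.083 and 0.234 (ADE_EPZ and Control) and 0.273, -0.034 and 0.092 (ES_EPZ and Control). Those of d6 G+H- and d5 Ghigh, which were taken as pairs, were similar to the first set, at 0.125, 0.269 and 0.238. Between ADE_EPZ and Control the block added 1 call. Leaving out 1 array at a time gave 0 to 1 member at d2, 0 to 5 in d3 G-, 5 to 10 in d3 G+, 1 to 4 in d4 G-, 2 to 4 in d4 G+, 0 to 16 in d5 G-, 2 to 9 in d5 Glow, 1 to 4 in d5 Ghigh and 0 to 5 for each d6 population against d5 Ghigh. It left 2 in each d6 population against ESCs, 2 for ADE_EPZ against Control, 1 for ADE_EPZ against ES_EPZ and 0 in every other comparison. Where a gene was above background on no array of a group, its change is a bound set by the array's background.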

Other observations

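Over all 14 groups the array with the highest Hox mean had the lowest endoderm marker mean in 8 groups and the highest mesoderm marker mean in 10. The second Hoxb3 probe was above background on 21 of 42 arrays, against 33 for the probe used. Its change from ESCs was called in d3 G+ (1.55) and d5 Glow (2.19) but not in d4 G+ (1.16) or d5 Ghigh (0.97). Between d6 G+H+ and d5 Ghigh it gave -0.74, not called. Between d5 Glow and d5 Ghigh it gave 1.21, against -0.39 at the probe used. The second Hoxd11 probe reached 8.38 on its highest array and the probe used 8.07, being above background on 18 and 29 arrays.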
